A study of Rattus norvegicus with 6 samples.

Results

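The microRNAs described here are both mature strands of miR-150 and of miR-342, rno-miR-150-5p, rno-miR-150-3p, rno-miR-342-3p and rno-miR-342-5p (written without the species prefix from here on), in left ventricular myocardium of the rat. They were chosen by name, with earlier results of these data known. They are 4 of the 758 rat miRNAs on the array, read by 10 of its 1806 probes and 64 of its 12128 miRNA spots. MI samples came from male rats, 8 weeks old, whose left coronary artery had been tied off, with tissue labelled 24 h; the muscle fed by that artery then dies for want of blood, which is a myocardial infarction (MI). Rats were kept in the MI group where electrocardiography and other observations showed an infarct. Control samples came from male rats of the same age handled alike but with the artery not tied, labelled 0 h. The sample labels name only these times, and the 24 h samples were read as MI; time after surgery and ligation cannot be told apart. There were 3 samples in each group and 1 single-colour array per sample. Whether the samples of a group came from separate animals is not given in the labels. The p-values therefore cover the spread among these arrays, which may be technical.

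MiRNAs are short RNAs that sit in Argonaute proteins and lower the output of mRNAs that pair with their seed, bases 2 to 8 of the mature strand. A hairpin precursor is cut into a 5p and a 3p strand, and one of them, the guide, is usually kept while its partner is degraded more often. MiR-150 is abundant in mature B and T lymphocytes, and in mouse its guide, miR-150-5p, represses Myb, a transcription factor of lymphocyte progenitors. MiR-342 is made from within Evl, a gene for a regulator of actin filaments, and its guide, miR-342-3p, is found in lymphoid and other blood cells. The healthy ventricle holds few lymphocytes, and an infarct draws in neutrophils and monocytes first.

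The miR-342 strands are shown because they come from one hairpin, so that their array values can be set beside the molecule that gives both. RefSeq's table for rat build GRCr8 matched 2 of the 4 members, the strands of miR-342, and the seed stands in capitals in each.
miR-342-3p: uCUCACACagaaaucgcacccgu
miR-342-5p: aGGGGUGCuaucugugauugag
Neither seed was shared by another of the 693 mature names in that table. MiR-342-3p is 23 bases long with a G and C share of 52.2%, and miR-342-5p is 22 bases long. The Mir342 hairpin of 99 bases lies at chr6:133329655-133329753 on the plus strand of GRCr8, inside the span of Evl, and is shown with both mature strands in capitals.
Mir342 hairpin: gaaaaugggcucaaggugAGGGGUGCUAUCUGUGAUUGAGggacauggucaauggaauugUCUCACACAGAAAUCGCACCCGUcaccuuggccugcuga
MiR-342-5p takes bases 19 to 40 of the hairpin and miR-342-3p bases 61 to 83. Mir150 lies on chromosome 1 in the same assembly.

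Each array gave between 446 and 472 miRNAs well above background, and 449 miRNAs were tested, those found on every array of MI, of control or of both. All 4 cardiomyocyte markers examined, miR-1-3p, miR-133a-3p, miR-208a-3p and miR-499-5p, were detected on all 6 arrays. With limma, p-values adjusted over the 449 miRNAs by Benjamini-Hochberg and a threshold of 0.05, 11 miRNAs (2.45%) passed, of which 8 miRNAs (1.78%) were higher and 3 (0.668%) were lower in MI. The file headers carry a code of unstated meaning, which is 1 for the 3 controls and for MI replicate 1, and 2 for the other MI arrays. Control replicate 3 had a scan of its own, while the other 5 arrays shared a scan.

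The 3 strands with signal well above background on all 6 arrays, miR-150-5p, miR-150-3p and miR-342-3p, did not pass the adjusted test. The fourth, miR-342-5p, passed it with a lower value in MI, but its signal lay near background: it was detected on 1 of 3 MI arrays and 3 of 3 control arrays, and so entered the test only through the controls. Its call is therefore a description of near-background values and supports nothing else here. The other strands lay on different sides: both guides, miR-150-5p and miR-342-3p, were 1.15-fold and 1.12-fold lower in MI, and miR-150-3p was 1.15-fold higher, none of them past the threshold. The groups did not overlap for any of these 3, a separation that 20.7% of all tested miRNAs also showed. Of the 3, 2 were lower in MI, as were 9.8% of all, and 1 was higher, as were 10.9%. The median log2 fold change over all tested miRNAs was 0.02.

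**Figure D1:**
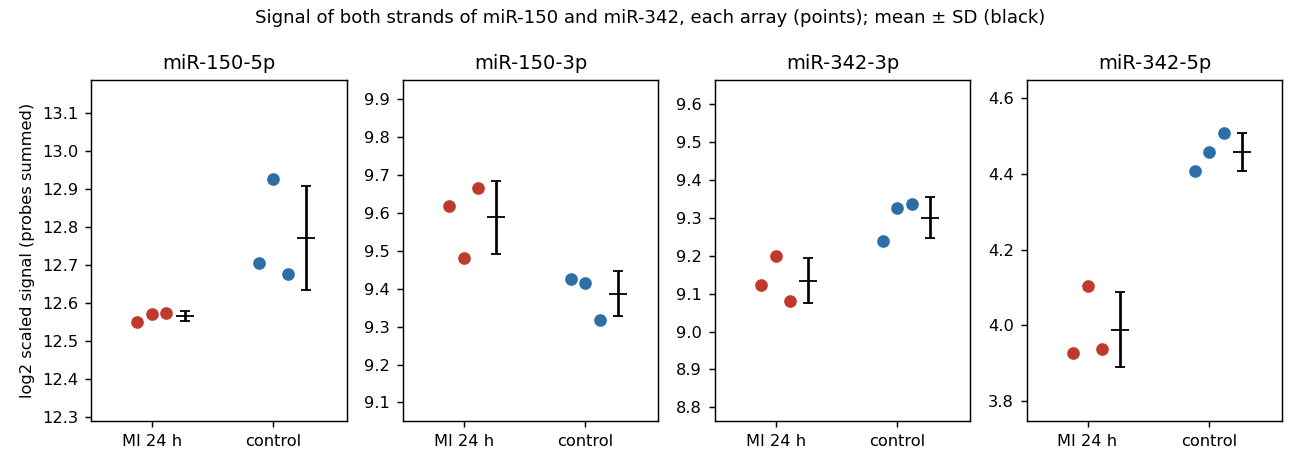
Log2 scaled signal (y axis, probes of a miRNA summed, each panel spanning the same number of log2 units) of the 4 strands on the 3 MI arrays (left in each panel) and the 3 control arrays (right), with the mean and SD of each group in black. MI arrays lie below control arrays for miR-150-5p, miR-342-3p and miR-342-5p, and above them for miR-150-3p.

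MiR-150-5p, the guide strand of miR-150, had scaled signals of 5995, 6087 and 6089 on MI arrays 1 to 3, against 6683, 7790 and 6545 on control arrays 1 to 3. The MI arrays lay within a narrow range, below the lowest control, and control replicate 2 stood above the other controls. On the log2 scale the mean was 12.56 ± 0.01 in MI and 12.77 ± 0.14 in controls (SD, n = 3 each). The log2 fold change was -0.21 ± 0.09 (SE; 95% interval -0.41 to 0.00236; limma adjusted p = 0.373). Without control replicate 2 it was -0.13 and the limma adjusted p was 0.658 (0.167 to 0.659 over all alternatives), and in the authors' processed values, where the groups overlapped, it was also -0.13. With quantile normalization it was -0.14.

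MiR-150-3p, the partner strand from the other arm of the same hairpin, had scaled signals of 786.3, 714.4 and 812.3 on MI arrays 1 to 3, against 687.4, 683.3 and 638.2 on control arrays 1 to 3. MI replicate 2 was the lowest of its group and lay 0.06 log2 units above the highest control. The mean log2 signal was 9.59 ± 0.10 in MI and 9.39 ± 0.06 in controls (SD, n = 3 each). The log2 fold change was 0.20 ± 0.08 (SE; 95% interval 0.01 to 0.39; limma adjusted p = 0.328, unadjusted p = 0.0401). An unadjusted p under 0.05 was reached by 13.6% of all tested miRNAs. With each array scaled to its median the difference was 0.11 and with the 75th percentile over all probes or with no scaling it was 0.13. In the first 2 of these settings the groups overlapped, as they did in the authors' processed values. They also overlapped in the scanner software's own total signal as deposited, at 349.9, 374.7 and 383 in MI and 357.4, 336 and 327.1 in controls.

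Both probes of each miR-150 strand gave the same picture. The 2 probes of miR-150-5p differed by -0.18 and -0.24 log2 units and those of miR-150-3p by 0.20 and 0.21, and in each of these 4 probes the groups did not overlap. All 4 were well above background on 6 of 6 arrays, with 8 spots each, and the spots of a probe within 1 array varied by at most 5.58% (coefficient of variation). These values describe the same samples through different probes and are not further replicates.

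**Figure D2:**
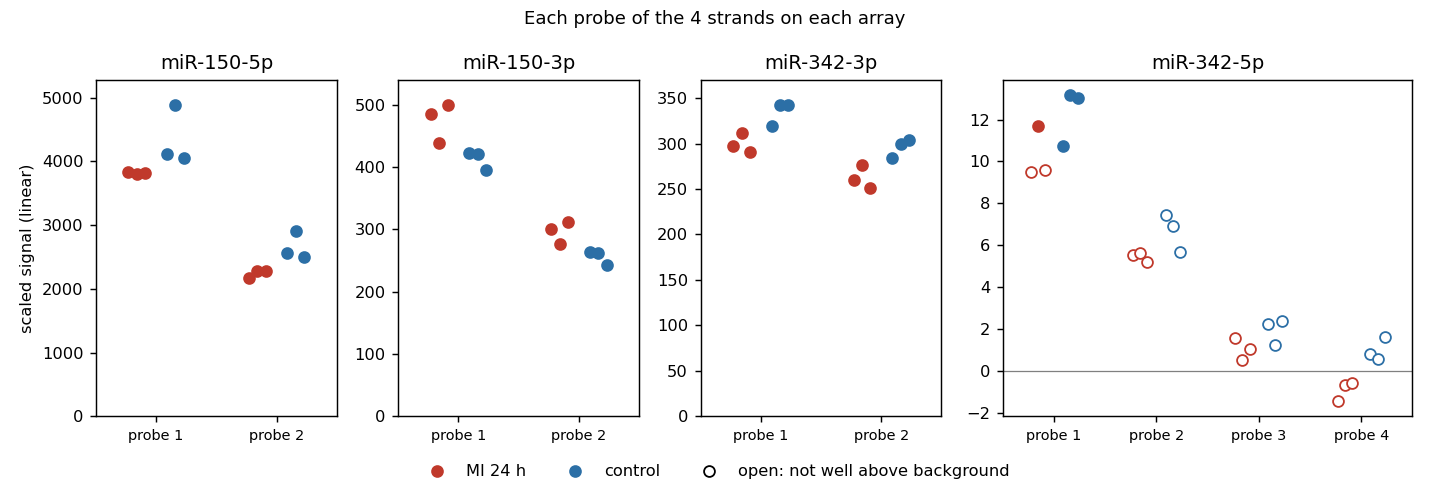
Scaled signal on a linear axis (y, starting at 0 except for miR-342-5p, whose axis holds small negative values) of each probe of the 4 strands, ordered from bright to dim, on the 3 MI arrays (red, left) and the 3 control arrays (blue, right). Open points were not well above background on that array, which holds for all but 4 of the points of miR-342-5p and for none of the other strands.

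MiR-342-3p, the guide strand of miR-342, had scaled signals of 557.1, 588.3 and 541.9 on MI arrays 1 to 3, against 604.3, 642.4 and 646.2 on control arrays 1 to 3. The highest MI array, replicate 2, lay 0.04 log2 units below the lowest control, replicate 1. The mean log2 signal was 9.13 ± 0.06 in MI and 9.30 ± 0.05 in controls (SD, n = 3 each), a log2 fold change of -0.17 ± 0.07 (SE; 95% interval -0.34 to 0.00276; limma adjusted p = 0.373). Its 2 probes stood at -0.16 and -0.17, both well above background on every array. The groups also did not overlap in any of 11 other ways of computing the values on all 6 arrays, with log2 fold changes from -0.26 to -0.13 over all alternatives, and no setting brought the adjusted p under 0.05.

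MiR-342-5p, the partner strand, had scaled signals of 15.20, 17.20 and 15.31 on MI arrays 1 to 3, against 21.23, 21.96 and 22.74 on control arrays 1 to 3. The summed values did not overlap. Its mean log2 signal was 3.99 ± 0.10 in MI and 4.46 ± 0.05 in controls (SD, n = 3 each). The fit to these summed values gave a log2 difference of -0.47 ± 0.08 (SE; limma adjusted p = 0.0332), which depends on probes not above background and ran from -0.77 to 0.75 over the alternatives. With no filter on detection the limma adjusted p was 0.0590. Of the 3 miRNAs called lower (0.668% of those tested), the one with the smallest p was miR-181b-1-3p. That miRNA was detected on 2 of 3 MI arrays and 3 of 3 control arrays, so it too entered the test only through the controls. With a filter for detection on all arrays, 1 miRNA was called lower.

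The signal behind this call was small. Of the 4 probes of miR-342-5p, 1 was well above background on 1 of 3 MI arrays and 3 of 3 control arrays, and the other 3 on no array. That brightest probe had scaled signals of 9.50, 11.69 and 9.60 in MI, against 10.76, 13.17 and 13.05 in controls, and here the groups overlapped, since MI replicate 2 exceeded control replicate 1. Before background subtraction its spots had medians between 37.5 and 42, while the median over all negative control spots was 26 to 28 on the 6 arrays. The dimmest probe was at -1.42, -0.68 and -0.56 in MI, against 0.80, 0.60 and 1.61 in controls, values around 0 that enter the summed signal. With the brightest probe alone the log2 fold change was -0.26 (limma adjusted p = 0.415; 0.0159 to 0.863 over all alternatives).

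The direction of miR-342-5p also turned: it was 0.019 after normexp background correction and 0.75 in the authors' processed values. Those read 2.51, 1.29 and 1.21 in MI and 1.17, 2.43 and -0.86 in controls (log2), with overlapping groups. The scanner software's own total signal was 2.11, 3.07 and 2.26 in MI and 4.73, 4.94 and 3.34 in controls, without overlap. The software marked the miRNA as detected on all 6 arrays. The call was lost without any one of the 6 arrays, with limma adjusted p values from 0.0558 to 0.184.

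**Figure D3:**
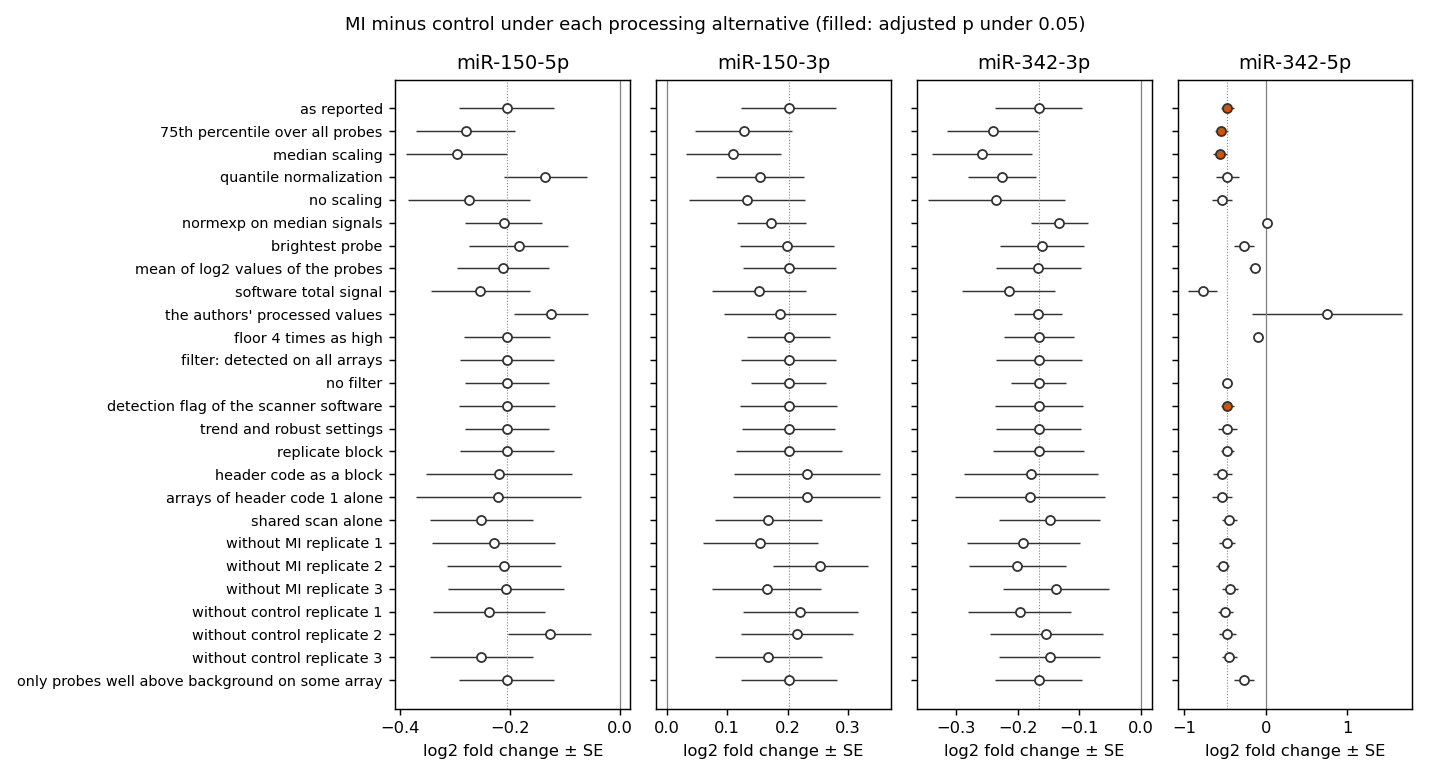
Log2 fold change (x axis, MI minus control, with its SE; each panel has its own range) of the 4 strands as reported and under each processing alternative (rows), filled where the adjusted p was under 0.05. The sign is the same in every row for miR-150-5p, miR-150-3p and miR-342-3p, and turns in 2 rows for miR-342-5p, whose signal was near background.

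The 2 strands of one precursor can be compared within an array, where the factor used to scale that array cancels. The size of such a difference also depends on the probes, so only its change between groups is read here. For miR-150, the log2 difference of 5p minus 3p was 2.93, 3.09 and 2.91 on MI arrays, against 3.28, 3.51 and 3.36 on control arrays. The mean was 2.98 ± 0.10 in MI and 3.38 ± 0.12 in controls (SD, n = 3 each), a change of -0.41 ± 0.09 (SE). All 3 MI arrays lay below all 3 control arrays, and the exact two-sided permutation test gave p = 0.1, the smallest that 3 against 3 arrays allow (0.125 adjusted over the 5 differences of this kind). The change kept its sign in all 21 alternatives, between -0.47 and -0.29. Several of these could not move it: it stayed at -0.41 with other scaling factors, no scaling, a higher floor or the replicate block. The shared scan and the fit without control replicate 3 use the same arrays.

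For miR-342, the log2 difference of 3p minus 5p was 5.2, 5.1 and 5.15 on MI arrays, against 4.83, 4.87 and 4.83 on control arrays, a change of 0.30 ± 0.03 (SE; exact permutation p = 0.1, adjusted 0.125, the smallest possible). The groups did not overlap. This difference rests on miR-342-5p, which was not well above background on 2 of 3 MI arrays, so its size and p are a description of the summed values. With only the probes well above background on some array it was 0.099. It took the opposite sign in 4 of 21 alternatives, among them normexp, at -0.15, and the authors' processed values, at -0.92.

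The same strand difference was available for 114 precursors with both strands tested. In a limma fit across all of them, a test added after seeing the data, 0 of 114 passed an adjusted p under 0.05, with 17 (14.9%) at an unadjusted p under 0.05. In that limma fit the MI minus control difference in 5p minus 3p had an adjusted p of 0.0803 for miR-150, at -0.41 ± 0.09 (SE). By size, miR-150 ranked 15 of 114, against a median absolute change of 0.12. The fitted value of miR-342, -0.30, is not read further, since its 5p strand entered only through the controls. The groups did not overlap for the strand difference of 26.3% of the pairs. Over all 114 pairs, the strands had fold changes of opposite sign in 40 (35.1%). Both strands separated MI from control arrays in 15 pairs, among them miR-342 with its near-background 5p strand. In 14 of these pairs, miR-342 included, the strands lay on the same side, and in 1, miR-150, they lay on opposite sides. The groups of miR-150-3p stayed apart in 8 of 11 other ways of computing the values, and overlapped in the software's total signal as deposited. The place of miR-150 among the 15 therefore depends on the setting. MiR-150 is singled out after its values were seen, and no test was made of these counts.

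**Figure D4:**
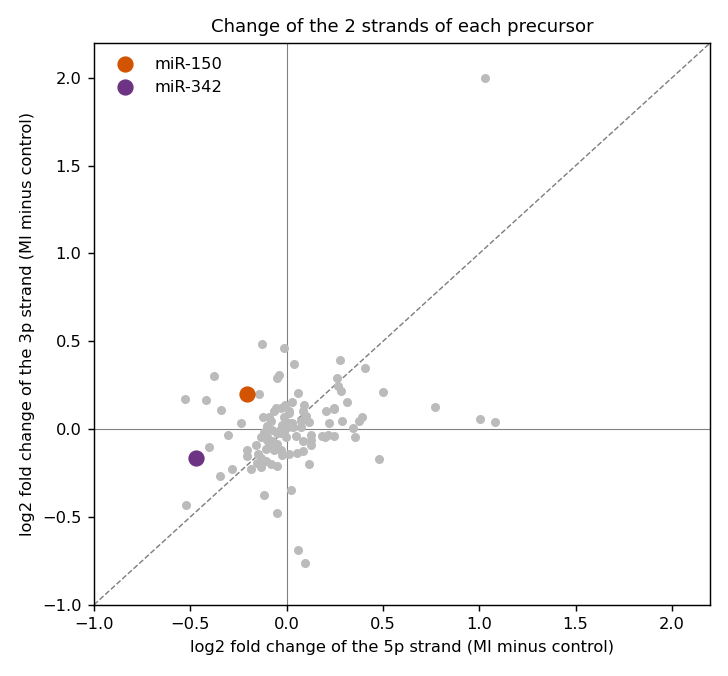
Log2 fold change (MI minus control) of the 5p strand (x axis) against that of the 3p strand (y axis) for the 114 precursors with both strands tested (grey), with miR-150 and miR-342 in colour; the dashed line marks equal change. MiR-150 lies in the upper left, at -0.21 and 0.20, and miR-342 in the lower left, at -0.47 and -0.17, the first of these from near-background signal.

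The guides of the 2 precursors were also set against each other. The log2 difference of miR-150-5p minus miR-342-3p was 3.43 ± 0.06 in MI and 3.47 ± 0.13 in controls (SD, n = 3 each), and its change of -0.04 ± 0.08 (SE) gave an exact permutation p of 0.7 (adjusted 0.7), with overlapping groups. Over the 6 arrays the Pearson correlation of log2 signal was 0.956 between the miR-342 strands, 0.758 between the guides and -0.578 between the miR-150 strands, as a description of arrays that share 2 groups and their scaling. The first value uses miR-342-5p, whose signal was near background. After taking out the group means they were, in the same order, 0.885, 0.228 and 0.258. Among the other pairs, the correlation between miR-150-3p and miR-342-3p was then -0.852. That of miR-342-5p was -0.939 with miR-150-3p and -0.0088 with miR-150-5p. With so few arrays these values too are a description.

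Other blood cell miRNAs were read beside the members. MiR-223-3p, a microRNA of the granulocyte and monocyte lineages, had log2 signals of 11.64, 12.84 and 12.51 on MI arrays, against 10.80, 10.89 and 10.95 on control arrays, a difference of 1.45 ± 0.29 (SE; limma adjusted p = 0.0619). All MI arrays lay above the controls, and MI replicate 1 was the lowest of them. Set against it within each array, miR-150-5p stood lower in MI, with a difference of -1.65 log2 units, at 0.24 ± 0.61 in MI and 1.89 ± 0.15 in controls (SD, n = 3 each; exact permutation p = 0.1, adjusted 0.125). MiR-342-3p minus miR-223-3p was -3.19 ± 0.60 in MI and -1.58 ± 0.03 in controls (SD, n = 3 each; exact permutation p = 0.1, adjusted 0.125). Most of both differences is the higher miR-223-3p, since miR-150-5p itself stood at -0.21 and miR-342-3p at -0.17. MiR-223-3p comes from a list chosen with earlier results of these data known, so these values are a description. Within the arrays of header code 1, where MI replicate 1 is set against the 3 controls, these 2 differences were -0.98 and -0.94, against -1.65 and -1.61 over all 6 arrays, and in the shared scan they were -1.73 and -1.63.

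The lymphoid list, chosen with earlier results of these data known, holds both guides and 4 other miRNAs. None of its 6 members passed the adjusted test, and at an unadjusted p under 0.05 limma put 0 of them higher and 1 lower in MI, against 8.46% and 5.12% of all tested miRNAs. Of the 6, 5 lay below 0, both guides among them, as did 203 of all 449 tested miRNAs. The median log2 fold change of the list was -0.11, against 0.02 over all miRNAs. In the other lists described below, 4 of 4 cardiomyocyte and 2 of 2 endothelial miRNAs also lay below 0. So did 2 of 4 smooth muscle and fibroblast, 0 of 4 erythroid and 0 of 3 tested myeloid and pan-leukocyte miRNAs. MiR-146a-5p, which restrains inflammatory signalling in lymphoid and myeloid cells, had log2 signals of 12.51, 12.48 and 12.55 in MI, against 12.68, 12.90 and 12.84 in controls. Its groups did not overlap, with a log2 fold change of -0.29 ± 0.08 (SE; limma adjusted p = 0.194). MiR-155-5p, induced in activated lymphocytes and macrophages, stood at 0.19 ± 0.10, and miR-181a-5p and miR-181b-5p, known from developing lymphocytes, stood at -0.03 ± 0.09 and -0.06 ± 0.07.

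For each list, the signals of its miRNAs were summed on the linear scale, with negative values set to 0, and then taken to log2. The log2 of the summed signal of the lymphoid list was 13.83 to 13.85 in MI and 13.97 to 14.14 in controls. This list holds both guides, so its sum is not separate from them. That of the myeloid and pan-leukocyte list was 13.31 to 13.98 in MI and 13.00 to 13.24 in controls; 3 of its 4 members were tested, 0 passed, and miR-223-5p was well above background on no array. MiR-142-3p and miR-142-5p, found across blood cell lineages, stood at 0.21 ± 0.12 and 0.06 ± 0.12. The erythroid list, with 0 of 4 past the threshold, summed to 14.57 to 15.04 in MI and 14.25 to 14.73 in controls, with miR-451-5p at 0.36 ± 0.18 and miR-144-3p at 0.35 ± 0.21. In bulk tissue, fewer cells of a type and less RNA per cell cannot be told apart, and the part of these other cell types in the members' values was not tested.

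The cardiomyocyte list summed to 17.52 to 17.60 in MI and 17.46 to 17.72 in controls, the endothelial list to 16.18 to 16.19 in MI and 16.22 to 16.42 in controls, and the smooth muscle and fibroblast list to 15.90 to 15.97 in MI and 15.92 to 16.17 in controls. None of their 10 members passed. MiR-1-3p and miR-133a-3p stood at -0.02 ± 0.08 and -0.10 ± 0.09. MiR-126a-3p and miR-126a-5p, markers of endothelium, stood at -0.14 ± 0.08 and -0.15 ± 0.09, and miR-143-3p and miR-145-5p, of smooth muscle, at -0.12 ± 0.10 and -0.08 ± 0.09. The ranges of MI and control did not overlap for the summed signal of the lymphoid, myeloid and endothelial lists, and overlapped for the other 3 lists. Among single tested miRNAs, 20.7% separated the groups. A linear sum is carried by its brightest members. In the myeloid list only miR-223-3p separated the groups, in the endothelial list only miR-126a-3p, and in the lymphoid list miR-150-5p, miR-342-3p and miR-146a-5p. No test of a difference between these miRNAs and the members was made.

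**Figure D5:**
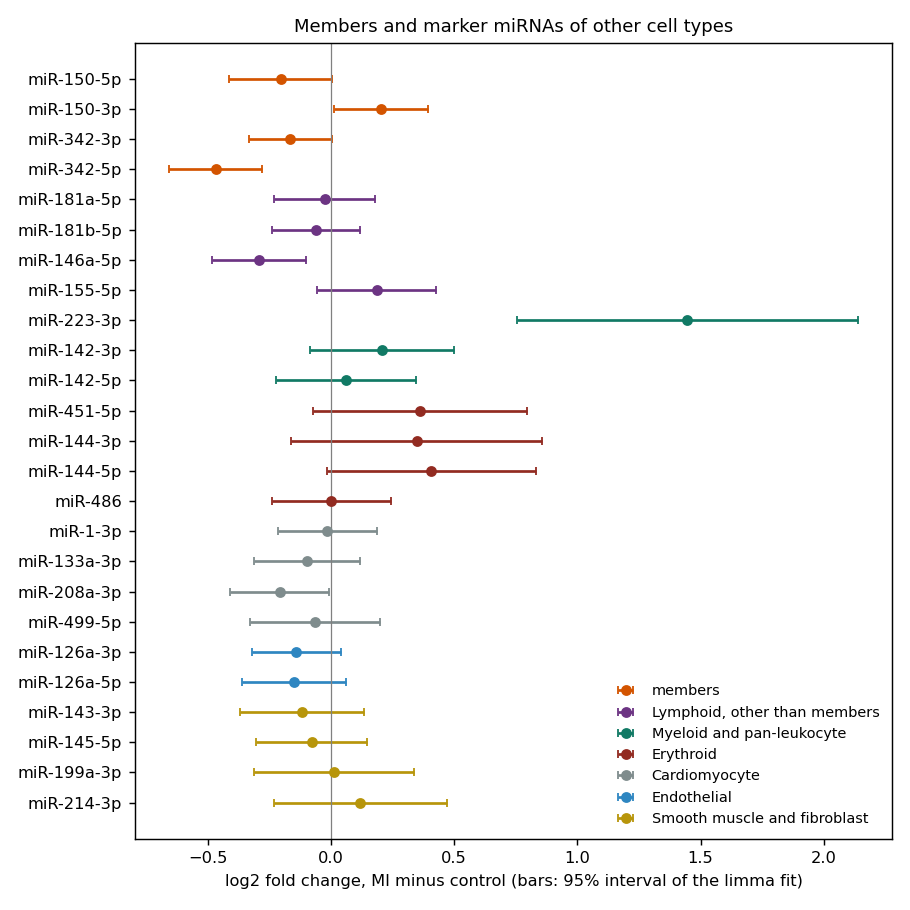
Log2 fold change (x axis, MI minus control, with the 95% interval of the limma fit) of the 4 strands and of marker miRNAs of other cell types, in colour by list. The interval of miR-342-5p lies below 0 and that of miR-150-3p just above it, those of miR-150-5p and miR-342-3p reach 0, and miR-223-3p lies farthest to the right.

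The members kept their signs within header code and scan, and miR-342-5p no longer passed the threshold. Within the 4 arrays of code 1 the log2 fold changes were -0.22 for miR-150-5p, 0.23 for miR-150-3p, -0.18 for miR-342-3p and -0.53 for miR-342-5p, and with the code as a block they were -0.22, 0.23, -0.18 and -0.53 as well. Both rest on MI replicate 1 as the lone MI array, taken to vary as the controls do, and the limma adjusted p of miR-342-5p was 0.220 and 0.243. Code 2 holds MI arrays alone and gave no value. Within the shared scan, which leaves out control replicate 3, the values were -0.25, 0.17, -0.15 and -0.44 (limma adjusted p = 0.149 for miR-342-5p).

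Over the 6 arrays, the tested miRNAs whose log2 signal followed miR-150-5p most closely were miR-30a-3p (Pearson r = 0.988), miR-126a-3p (0.953) and miR-30b-5p (0.948). For miR-150-3p they were miR-628 (0.979), miR-711 (0.976) and miR-139-3p (0.938), whose log2 fold changes were 0.27, 0.16 and 0.20. For miR-342-3p they were miR-30c-1-3p (0.995), let-7a-5p (0.988) and its own partner miR-342-5p (0.956), whose signal was near background. MiR-30c-1-3p stood at -0.56 and let-7a-5p at -0.05. The 8 named miRNAs outside the members were all short of the adjusted threshold, and with 6 arrays that share 2 groups these values are a description.

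No miRNA with a mature entry in RefSeq's table lay within 1 Mb of Mir150. Mir150 itself has no such entry, so a neighbour also without an entry would be missed. Around Mir342 there were 11 other precursors, among them Mir345 and miRNA genes of the imprinted Dlk1-Dio3 cluster. Of their 18 mature strands 11 were tested, 0 passed in limma with Benjamini-Hochberg adjustment over all miRNAs, and 4 lay below 0, with log2 fold changes from -0.55 (miR-337-3p) to 0.36 (miR-3544). The nearest by name, miR-345-5p and miR-345-3p, stood at -0.12 ± 0.10 and -0.02 ± 0.10.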

How the data were processed

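Per the submitters' processing notes, the authors read the scans with Agilent Feature Extraction, version 11.0.1.1. The deposited scanner files hold intensity values on a linear scale, the processed signal having its background subtracted, and, per the file headers, other columns that are flags of 0 or 1. A further table of values processed by the authors is on a log2 scale. Its columns have a common median of 3.947, and how it was scaled or centred is not given in the sources used here. The headers name build rn4 and give no coordinates, so RefSeq's GRCr8 tables served for sequences and neighbours. This replaces file coordinates in the rule for neighbouring miRNAs.

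Outlier spots (8.32% to 9.63% per array) were left out and the rest averaged per probe. Detection of a probe needed the flag for signal well above background on more than 50% of the spots kept, and detection of a miRNA needed 1 such probe. Each array was divided by its 75th percentile over 885 probes, those detected throughout, probes of a miRNA were summed, and a floor of 5.14 was set before log2. No spot was saturated (0). The 449 miRNAs detected throughout MI, control or both entered a limma fit (version 3.58.1, R 4.3.3) with group as the only term, Benjamini-Hochberg adjustment and a threshold of 0.05. The fit was checked on simulated data whose planted changes were larger than those of the members. That check does not cover changes as small as theirs. Strand and guide differences were tested by two-sided exact permutation over arrays. Named miRNAs are the members, the lymphoid and myeloid lists, the first 2 of the other lists, the 3 miRNAs most correlated with each member detected on all 6 arrays, neighbours within 1 Mb and, as a scale, the called miRNA with the smallest p among those lower in MI (the rule allowed one in each direction). The remaining cardiomyocyte markers are named for the tissue check, after their values were seen. The members and lists were chosen with earlier results of these data known. The number of arrays limits the precision.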

Additional observations from a re-analysis of the deposited data

How the results depend on the processing

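Over 25 alternatives the signs and sides of the threshold of miR-150-5p, miR-150-3p and miR-342-3p were the same as reported, with ranges of -0.30 to -0.13, 0.11 to 0.25 and -0.26 to -0.13. The higher floor, the detection filters, the trend and robust settings and the replicate block left these fold changes as they were and altered only the test. The shared scan and the fit without control replicate 3 use the same arrays. Of 24 alternatives, the call of miR-342-5p was held in 3 (the 75th percentile over all probes, median scaling and the software's detection flag). Its log2 fold change, past the threshold no longer, was -0.47 with quantile normalization, no filter, trend and robust settings or the replicate block, -0.54 without scaling, -0.26 with the brightest probe or with probes well above background on some array (added after seeing the data), -0.14 as the mean of log2 probe values, -0.77 in the software total signal, -0.095 with a floor 4 times as high, -0.53 with the header code as a block or code 1 alone, -0.44 in the shared scan, and -0.53 to -0.44 without single arrays. It reversed to 0.019 with normexp and 0.75 in the authors' values; the cause was not tested. A filter for detection on all arrays left miR-342-5p out. The change in miR-342-3p minus miR-342-5p reversed to -0.15 (normexp), -0.030 (mean of log2 values), -0.92 (authors' values) and -0.071 (higher floor). That in miR-150-5p minus miR-342-3p reversed to 0.091 with quantile normalization and 0.042 in the authors' values, and spanned -0.10 to 0.026 without single arrays, the last without control replicate 2. The other differences kept their signs, though a change of scaling factor cannot move them. The 11 calls over all miRNAs (8 higher, 3 lower) became 7 without scaling, 6 with the higher floor, 5 without a filter, 5 in the shared scan, 3 with the header code as a block, 1 in code 1 alone and 4 to 12 without single arrays. The split was 5 higher and 5 lower with the 75th percentile over all probes and with median scaling. The labels number the replicates in both groups and do not say whether the numbers pair samples. Deviations of same-numbered samples correlated at 0.116, -0.0362 and 0.113, which cannot settle whether they are paired, since differently numbered samples were not compared. With the replicate block 3 were higher and 0 lower, with 62 at an unadjusted p under 0.05 in limma. No scaling moved the median of all miRNAs by over 0.1. The signal of miR-342-5p over background limits what can be read from it.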
